A study of Mus musculus with 10 samples.

Results

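YAP and TAZ are the transcriptional coactivators at the end of the Hippo pathway, and the TEAD factors are their main partners on DNA. The 8 genes described here are Yap1, the gene of YAP, Wwtr1, the gene of TAZ, the TEAD genes Tead1, Tead2, Tead3 and Tead4, and the vestigial-like cofactor genes Vgll3 and Vgll4. They were taken by gene symbol from a table of 56691 genes, and each symbol matched a single row. RNA came from the esophageal epithelium of mice in 10 libraries, 5 labelled Mst1/2 KO and 5 labelled WT. The KO genotype was p63CreERT2;Mst1loxp/loxp;Mst2-/-, in which Mst2 alleles are null, the Mst1 allele is floxed, and the tamoxifen-inducible Cre carries the name of p63, which marks basal cells of squamous epithelia. Both KO and WT mice received 3 doses of tamoxifen at 100 mg/kg, given every 2 weeks, and RNA was taken after around 8 weeks. The labels used here give no age, sex or strain, and do not say whether WT mice carried the Cre. They also do not say that the libraries came from different mice, so p-values measure the spread between these libraries, which may be technical.

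In the Hippo pathway the kinases Mst1 and Mst2 activate the Lats kinases, which phosphorylate YAP and TAZ. Phosphorylated YAP and TAZ are held in the cytoplasm and degraded, and unphosphorylated YAP and TAZ enter the nucleus and bind TEAD factors, which do the DNA binding. This control acts mainly on the proteins, so transcript levels do not report where YAP and TAZ are or how active they are. VGLL4 competes with YAP for TEAD, whereas VGLL3 is a TEAD-binding cofactor of a different type. In squamous epithelia YAP and TAZ are best known from basal cells.

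The TEAD factors bind the letters GGAATG, or CATTCC on the other strand, so the promoters of the 8 genes were searched for both spellings, and the promoters that hold them are printed so that the matches can be read in place. RefSeq sequences on GRCm38.p6, from 250 bases before to 50 bases after a start, were found for 6 of the 8 genes, and Tead1 and Tead4 had no entry. At least 1 match lay in a promoter of 5 of the 6 genes, and Tead2 had none. Across the mouse genome 16.6% of 27025 genes and 14.7% of 32851 promoters had a match. A match describes letters in this window and is not a site of binding. The matches, in capitals, lie 141 bases before the start of Yap1 (chr9:8004547-8004846, minus strand), 136 bases before that of Wwtr1 (chr3:57575861-57576160, minus strand), 63 bases before that of Vgll3 (chr16:65814939-65815238, plus strand) and 82 bases before that of Vgll4 (chr6:114969154-114969453, minus strand). The second of the Tead3 promoters (chr17:28350551-28350850, minus strand) holds 3, at 123 and 114 bases before the start and 2 bases after it. The first Tead3 promoter has 1 match and the last has none, and a Wwtr1 promoter that overlaps the printed one holds the same match. The promoter of Ccn1, a textbook target of YAP and TEAD (chr3:145649936-145650235, minus strand), is shown beside them, with its match 103 bases before the start.
Yap1: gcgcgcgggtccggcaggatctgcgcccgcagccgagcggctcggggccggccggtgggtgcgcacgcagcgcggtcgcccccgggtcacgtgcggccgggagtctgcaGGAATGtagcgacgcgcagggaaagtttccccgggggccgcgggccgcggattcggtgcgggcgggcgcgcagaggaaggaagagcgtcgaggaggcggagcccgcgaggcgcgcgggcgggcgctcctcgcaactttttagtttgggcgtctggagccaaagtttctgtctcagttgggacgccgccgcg
Wwtr1: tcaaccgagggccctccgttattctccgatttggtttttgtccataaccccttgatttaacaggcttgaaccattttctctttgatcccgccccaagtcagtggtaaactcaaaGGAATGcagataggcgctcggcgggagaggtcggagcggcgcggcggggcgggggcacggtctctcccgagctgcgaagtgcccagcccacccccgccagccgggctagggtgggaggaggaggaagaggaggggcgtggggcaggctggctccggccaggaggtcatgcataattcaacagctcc
Tead3: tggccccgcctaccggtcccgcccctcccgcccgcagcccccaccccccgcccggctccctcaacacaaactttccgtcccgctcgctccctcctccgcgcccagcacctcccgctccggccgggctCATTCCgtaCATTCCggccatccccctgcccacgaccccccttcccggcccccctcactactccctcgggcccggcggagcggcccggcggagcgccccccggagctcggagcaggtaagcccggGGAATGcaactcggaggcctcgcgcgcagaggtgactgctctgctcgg
Vgll3: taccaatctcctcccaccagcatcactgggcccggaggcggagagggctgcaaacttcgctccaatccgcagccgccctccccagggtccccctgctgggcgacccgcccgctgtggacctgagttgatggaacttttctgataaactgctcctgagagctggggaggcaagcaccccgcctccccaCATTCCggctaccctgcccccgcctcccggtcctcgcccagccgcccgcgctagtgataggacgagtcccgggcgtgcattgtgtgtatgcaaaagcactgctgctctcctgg
Vgll4: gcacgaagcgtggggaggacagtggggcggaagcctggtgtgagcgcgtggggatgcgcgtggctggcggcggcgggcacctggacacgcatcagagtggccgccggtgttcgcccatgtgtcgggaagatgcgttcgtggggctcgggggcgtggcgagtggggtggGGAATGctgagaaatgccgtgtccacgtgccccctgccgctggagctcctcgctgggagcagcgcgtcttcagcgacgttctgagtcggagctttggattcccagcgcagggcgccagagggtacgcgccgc
Ccn1: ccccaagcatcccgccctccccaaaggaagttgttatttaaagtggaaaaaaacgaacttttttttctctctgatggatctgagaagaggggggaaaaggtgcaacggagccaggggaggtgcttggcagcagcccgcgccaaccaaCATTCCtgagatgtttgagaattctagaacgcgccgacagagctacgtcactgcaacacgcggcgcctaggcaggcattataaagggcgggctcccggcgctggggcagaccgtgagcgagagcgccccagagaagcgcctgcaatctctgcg

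The targeted kinases were read first, as a check of the labels. Stk3, the gene of Mst2, averaged 0.134 ± 0.0862 FPKM in KO and 2.62 ± 0.521 FPKM in WT (SD, n = 5 each), so the libraries fit their labels for that gene. FPKM are fragments scaled to gene length and library total, and can be compared between genes as far as the lengths used are right. Stk4, the gene of Mst1, averaged 15.6 ± 2.00 FPKM in KO and 19.3 ± 2.41 FPKM in WT, and a value for the whole gene cannot show the loss of single exons. Estimated from the values themselves, libraries held 13070000 to 16440000 fragments, and 10878 to 11606 genes reached 1 FPKM. The basal keratin Krt5 at 1868 to 2825 FPKM in KO and 1275 to 2534 FPKM in WT, and the suprabasal keratin Krt13 at 33902 to 38777 FPKM in KO and 34632 to 38781 FPKM in WT, mark the tissue as squamous epithelium.

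By mean, KO levels of the 8 genes were between 69.2% of the WT level, in Wwtr1, and 164% of it, in Tead2. Of the 7 genes that passed the filter of at least 1 FPKM in at least 5 libraries, 0 passed the test between genotypes (limma on log2(FPKM + 1), Benjamini-Hochberg adjusted p under 0.05 over 11386 genes), against 12.9% of all tested genes, of which 7.9% were higher and 4.96% lower in KO. At an unadjusted p under 0.05 there was 1, Wwtr1, and 29.7% of all tested genes were under that value. The fold change was negative for 6 and positive for 1, with a median of -0.15 on the log2 scale, against 0.06 over all tested genes. In each of the 8 genes the KO and WT values overlapped, whereas groups did not overlap for 10.5% of tested genes. Stk3, in the same fit, fell by 1.67 on the log2 scale (SE 0.12; limma adjusted p = 2.78e-06). It was at 0.25 FPKM or less in every KO library and passed the filter only through WT.

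**Figure D1:**
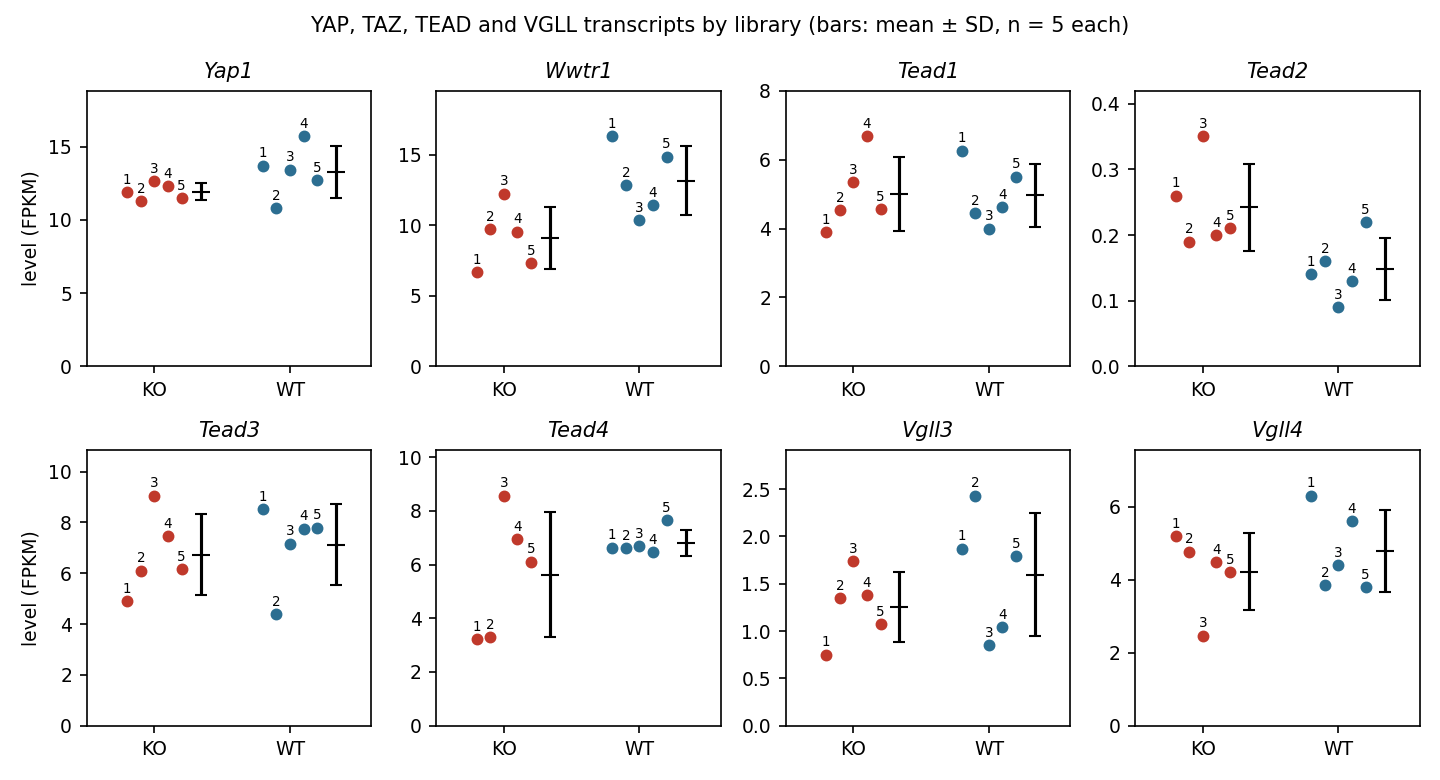
Level in FPKM of each of the 8 genes in the 5 KO libraries (left, red) and the 5 WT libraries (right, blue), numbered by replicate, with bars for the mean ± SD. Values of the groups overlap in every panel, Wwtr1 lies lowest in KO 1 and KO 5, and Tead4 falls into 3.21 and 3.30 FPKM in KO 1 and KO 2 and 6.11 FPKM or more in the other 8 libraries.

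Yap1, the gene of the coactivator YAP (ENSMUSG00000053110, chromosome 9), was the most abundant of the 8 in both genotypes by mean. It had 11.9, 11.3, 12.66, 12.32 and 11.5 FPKM in KO libraries 1 to 5, against 13.7, 10.8, 13.43, 15.7 and 12.72 FPKM in WT libraries 1 to 5. The KO values lie close together, 4 of 5 WT libraries lie above all of them, and the groups overlap only through WT 2, the lowest of the 10. Means were 11.9 ± 0.563 FPKM in KO and 13.3 ± 1.77 FPKM in WT (SD, n = 5 each). The log2 fold change was -0.13 (SE 0.10; limma adjusted p = 0.408), and its 95% interval, -0.35 to 0.09, covers folds of 0.782 to 1.06. With single libraries left out it was between -0.20, without WT 2, and -0.075, without WT 4, and did not pass (limma adjusted p = 0.136 and 0.651).

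Wwtr1, the gene of TAZ (ENSMUSG00000027803, chromosome 3), came nearest to the threshold. Its levels were 6.68, 9.73, 12.25, 9.55 and 7.32 FPKM in KO libraries 1 to 5, against 16.29, 12.85, 10.38, 11.43 and 14.85 FPKM in WT libraries 1 to 5. In KO, 4 of 5 libraries lie below every WT library, and KO 3 lies above WT 3 and WT 4. Means were 9.11 ± 2.21 FPKM in KO and 13.2 ± 2.42 FPKM in WT, so that the KO mean was 69.2% of the WT mean. The log2 fold change of -0.50 (SE 0.16; 95% interval -0.85 to -0.14) did not pass over all genes (limma adjusted p = 0.0644). It did pass without KO 3 (log2 fold change -0.60; limma adjusted p = 0.0348) or without WT 3 (-0.57; limma adjusted p = 0.0485), and after quantile normalization (-0.57; limma adjusted p = 0.0452) or with sample quality weights (-0.54; limma adjusted p = 0.0334). KO 3 was the highest KO library and WT 3 the lowest WT library, so leaving out either widens the difference. The adjusted p was larger without KO 1, KO 5, WT 1 or WT 5 (limma adjusted p = 0.138, 0.139, 0.153 and 0.146). The same held with a covariate for clock genes (limma adjusted p = 0.109) or the replicate number as a block (limma adjusted p = 0.129). Over the 21 alternatives the log2 fold change was -0.60 to -0.37 and the adjusted p 0.0334 to 0.9995, so Wwtr1 was lower in KO in every fit that was run and its call depended on the setting.

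**Figure D2:**
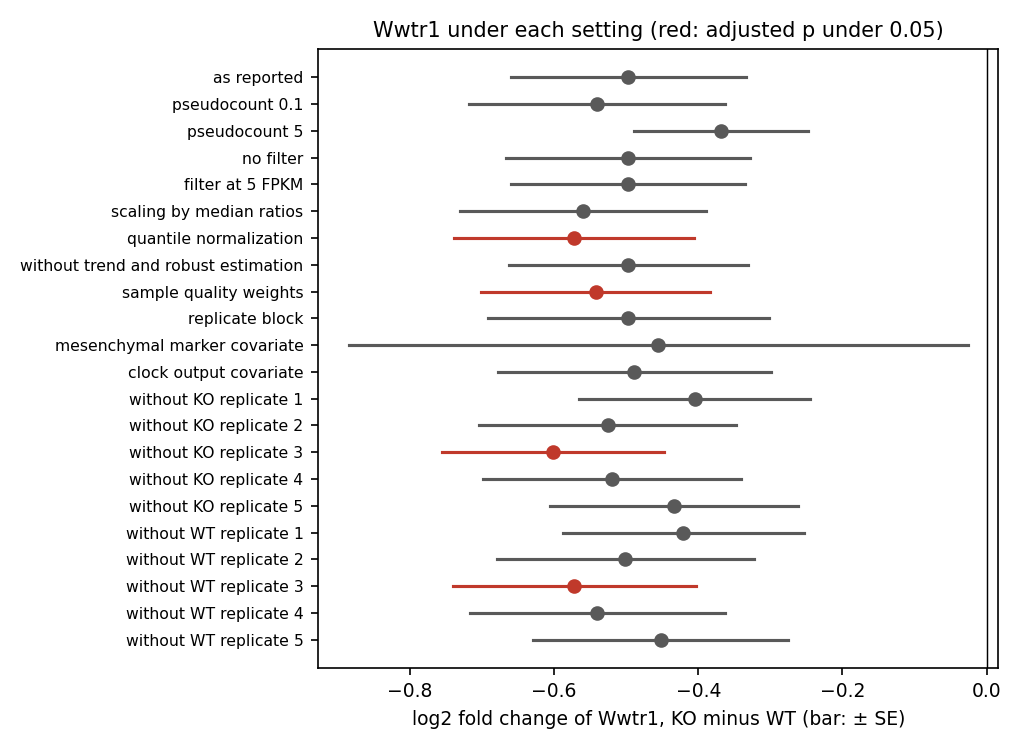
Log2 fold change of Wwtr1, KO minus WT, with its SE, as reported and under each of 21 alternatives, with red points for an adjusted p under 0.05. Points lie between -0.60 and -0.37, 4 alternatives are past the threshold, and the bar with the covariate for mesenchymal markers is the widest.

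In bulk tissue, fewer cells of a type and less RNA per cell cannot be told apart, so marker genes are given beside Wwtr1. The fold change was negative for 8 of 12 basal cell markers and positive for 4. At the threshold 0 rose and 3 fell in KO, against 7.9% and 4.96% of all tested genes. These 3 were Trp63, the gene of p63, at 22.6 ± 3.58 FPKM in KO and 38.8 ± 5.45 FPKM in WT, the hemidesmosome collagen gene Col17a1, at 75.8 ± 24.0 FPKM in KO and 133 ± 38.1 FPKM in WT, and Pdpn, a membrane glycoprotein gene, at 1.86 ± 0.708 FPKM in KO and 3.64 ± 1.00 FPKM in WT. The Cre of the KO mice carries the name of p63, and the labels do not say whether WT mice carried it. Its part in the level of Trp63 was not tested, so Trp63 is not a plain measure of basal cells. The basal keratins had higher means in KO and did not pass. Krt5 was at 2227 ± 408 FPKM in KO and 1718 ± 485 FPKM in WT. Krt14 was at 915 ± 508 FPKM in KO and 720 ± 322 FPKM in WT, and Krt15 at 998 ± 398 FPKM in KO and 915 ± 336 FPKM in WT. The summed level of the basal markers, mostly keratins, overlapped between the groups, at 3605 to 5309 FPKM in KO and 3084 to 5012 FPKM in WT, with no marker at 0. Of 9 tested suprabasal markers 2 rose, Sprr3 and Cnfn, and 1 fell, Ivl, and their sum was 78894 to 87244 FPKM in KO and 75246 to 85711 FPKM in WT. Of 14 markers of fibroblasts, muscle and endothelium only the proteoglycan gene Dcn was high enough to test, and it fell, with 0.308 ± 0.459 FPKM in KO and 8.59 ± 3.93 FPKM in WT (limma adjusted p = 8.62e-05). The other 13 were at 0.85 FPKM or less in every library, and Col1a2, Pdgfrb, Des, Cdh5 and Kdr were listed at 0 in all 10. The summed level of these 14 was 0.55 to 2.17 FPKM in KO and 5.03 to 14.4 FPKM in WT. Dcn alone was at 4.42 to 13.55 FPKM in WT, the group through which it passed the filter. The mean log2 value of this list did not overlap between the genotypes, at 0.049 to 0.165 in KO and 0.229 to 0.3502 in WT, so a fit with it as a covariate cannot tell genotype and list apart. In that fit Wwtr1 had a log2 fold change of -0.46 with an SE of 0.43. Of 8 leukocyte markers, only Cd74 was high enough to test and did not pass, and their sum was 5.35 to 16.3 FPKM in KO and 5.24 to 33.99 FPKM in WT. The part of these cell markers in the level of Wwtr1 was not tested.

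Together the coactivator transcripts came to 21.0 ± 2.58 FPKM in KO and 26.4 ± 2.70 FPKM in WT (Yap1 plus Wwtr1, SD, n = 5 each), as a description without a test. Wwtr1 made up 36.0%, 46.3%, 49.2%, 43.7% and 38.9% of that sum in KO libraries 1 to 5, against 54.3%, 54.3%, 43.6%, 42.1% and 53.9% in WT libraries 1 to 5. A share within a library does not depend on how the library was scaled. Yap1 was above Wwtr1 in 5 of 5 KO libraries and in 2 of 5 WT libraries. WT 1, WT 2 and WT 5 held more Wwtr1 than Yap1, and WT 3 and WT 4 had shares within the KO range.

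The TEAD genes encode the DNA-binding partners, and 3 of the 4 were expressed at similar levels. Tead3 (ENSMUSG00000002249, chromosome 17) had 4.89, 6.1, 9.05, 7.47 and 6.17 FPKM in KO libraries 1 to 5, against 8.53, 4.39, 7.17, 7.76 and 7.79 FPKM in WT libraries 1 to 5. KO 3 was the highest of all libraries and WT 2 the lowest, and the groups overlapped throughout. The log2 fold change of Tead3 was -0.07 (SE 0.18; 95% interval -0.45 to 0.31; limma adjusted p = 0.834), and it was 0.024 without KO 1 and -0.21 without WT 2 (limma adjusted p = 0.949 and 0.335).

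Tead1 (ENSMUSG00000055320, chromosome 7) had 3.9, 4.53, 5.34, 6.67 and 4.56 FPKM in KO libraries 1 to 5, against 6.26, 4.45, 4, 4.61 and 5.5 FPKM in WT libraries 1 to 5. The ranges nearly coincide, with means of 5.00 ± 1.06 FPKM in KO and 4.96 ± 0.906 FPKM in WT. Its log2 fold change was 0.0045 (SE 0.14; 95% interval -0.30 to 0.31; limma adjusted p = 0.988), which corresponds to folds of 0.811 to 1.24, and its sign was not stable under the alternatives.

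Tead4 (ENSMUSG00000030353, chromosome 6) was even among WT libraries and uneven among KO libraries. It had 3.21, 3.3, 8.56, 6.94 and 6.11 FPKM in KO libraries 1 to 5, against 6.63, 6.6, 6.69, 6.45 and 7.66 FPKM in WT libraries 1 to 5. KO 1, KO 2 and KO 5 lie below every WT library, and KO 3 lies above every WT library. The SD was 41.5% of the mean in KO and 7.13% in WT, a difference in spread that was not tested. The log2 fold change was -0.31 (SE 0.21; 95% interval -0.77 to 0.15; limma adjusted p = 0.351). It was -0.17 without KO 1, -0.18 without KO 2 and -0.46 without KO 3, and did not pass in any of these (limma adjusted p = 0.627, 0.609 and 0.148). KO 1 and KO 2 also had the highest sums of 4 clock output genes (Dbp, Nr1d1, Per3 and Tef) among KO libraries, 74.3 and 60.2 FPKM, against 9.01 to 20.6 FPKM in the other KO libraries. In WT libraries that sum was 25.6 to 118 FPKM while Tead4 stayed within 6.45 to 7.66 FPKM. With the mean log2 value of the clock genes as a covariate, the log2 fold change of Tead4 was -0.57 (SE 0.18; limma adjusted p = 0.0604). All 4 clock genes had a negative fold change, KO minus WT, with a median of -0.97 on the log2 scale, though 0 passed. That fit therefore cannot fully separate genotype from the clock genes. The part of the clock genes in the level of Tead4 was not tested, within either genotype or between them.

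Tead2 (ENSMUSG00000030796, chromosome 7) was near the limit of detection and did not pass the filter. It had 0.26, 0.19, 0.35, 0.2 and 0.21 FPKM in KO libraries 1 to 5, against 0.14, 0.16, 0.09, 0.13 and 0.22 FPKM in WT libraries 1 to 5. These correspond to about 13 to 23 fragments in KO libraries and 6 to 17 fragments in WT libraries. In WT, 4 of 5 libraries lie below every KO library, and WT 5 lies among the KO values. An exact permutation test of the mean log2 value gave an unadjusted two-sided p of 0.0317, where 252 assignments allow no p below 0.00794. In a fit without a filter on low values Tead2 did not pass (log2 fold change 0.11, SE 0.06; limma adjusted p = 0.367).

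The 4 TEAD transcripts summed to 17.6 ± 4.66 FPKM in KO and 19.0 ± 2.45 FPKM in WT (SD, n = 5 each). Tead3 made up 38.6% ± 3.20 of the sum in KO and 37.1% ± 5.23 in WT, Tead4 30.9% ± 5.92 in KO and 36.1% ± 4.27 in WT, and Tead1 29.0% ± 4.03 in KO and 26.0% ± 2.84 in WT. Tead2 was 1.43% ± 0.438 of the sum in KO and 0.780% ± 0.240 in WT. The makeup was thus shared by Tead3, Tead4 and Tead1 in every library, with Tead4 at its smallest share, 23.4%, in KO 2 and at its largest, 42.3%, in WT 2. In FPKM, Yap1 plus Wwtr1 exceeded the TEAD sum in all 10 libraries, with a ratio of 1.03 to 1.52 in KO and 1.30 to 1.52 in WT. This ratio depends on the gene lengths behind the FPKM, which are not known here, so it is not a count of molecules.

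**Figure D3:**
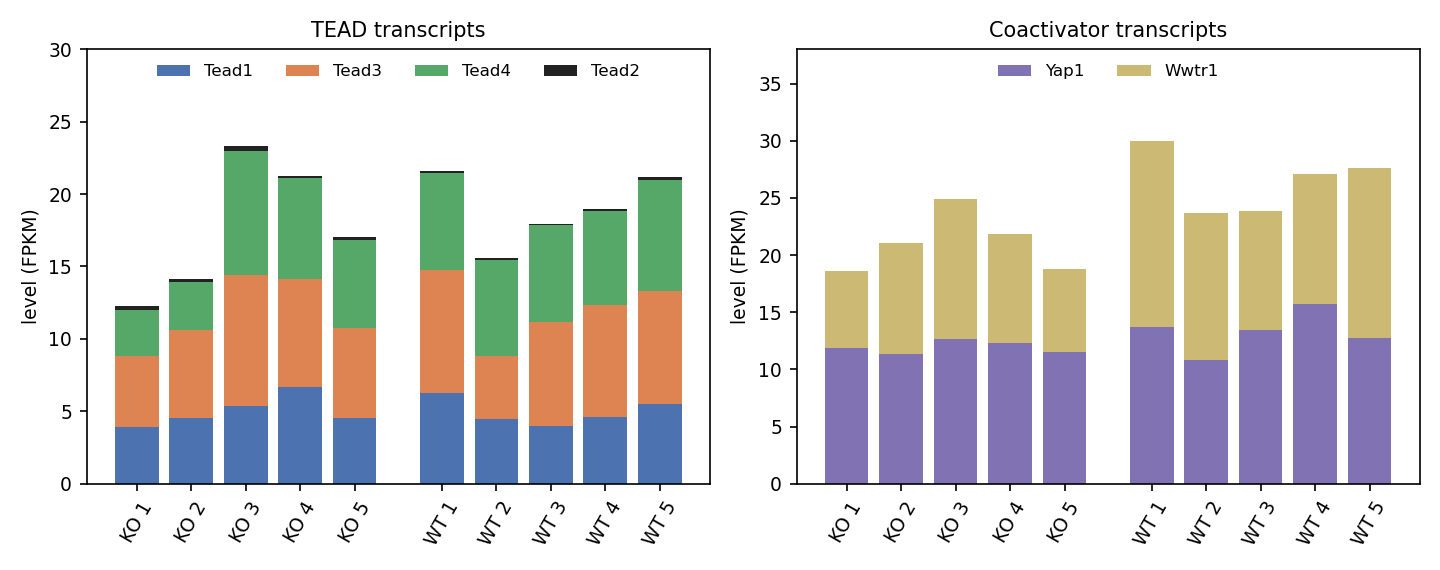
Stacked levels in FPKM of the 4 TEAD genes (left panel) and of Yap1 and Wwtr1 (right panel) in each library, KO libraries left of WT libraries. The TEAD sum ranges from 12.3 FPKM in KO 1 to 23.3 FPKM in KO 3, and Tead2 is the thin dark band on top.

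Vgll4 encodes a cofactor that competes with YAP for TEAD (ENSMUSG00000030315, chromosome 6). It had 5.2, 4.77, 2.47, 4.48 and 4.2 FPKM in KO libraries 1 to 5, against 6.3, 3.85, 4.4, 5.6 and 3.79 FPKM in WT libraries 1 to 5. KO 3 was the lowest of the 10 libraries, and the other KO values lie inside the WT range. The log2 fold change was -0.15 (SE 0.17; 95% interval -0.53 to 0.22; limma adjusted p = 0.590). It was -0.014 without KO 3 and -0.066 without WT 1 (limma adjusted p = 0.963 and 0.856), so it shrank without either of these libraries, and most without KO 3. Relative to the TEAD sum, Vgll4 was at 0.265 ± 0.122 in KO and 0.252 ± 0.0472 in WT. KO 3, with the highest TEAD sum and the lowest Vgll4, had the lowest ratio, 0.106, and KO 1 the highest, 0.424.

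Vgll3, a further TEAD-binding cofactor (ENSMUSG00000091243, chromosome 16), was low. It had 0.75, 1.35, 1.74, 1.38 and 1.07 FPKM in KO libraries 1 to 5, against 1.87, 2.43, 0.85, 1.04 and 1.79 FPKM in WT libraries 1 to 5. WT 1, WT 2 and WT 5 lie above every KO library, and WT 3 and WT 4 lie among the lower KO values. The log2 fold change was -0.18 (SE 0.18; 95% interval -0.58 to 0.22; limma adjusted p = 0.545). With single libraries left out it was between -0.29, without WT 3, and -0.07, without WT 2 (limma adjusted p = 0.287 and 0.814). Its paralogs Vgll1 and Vgll2 were listed at 0 in all 10 libraries.

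**Figure D4:**
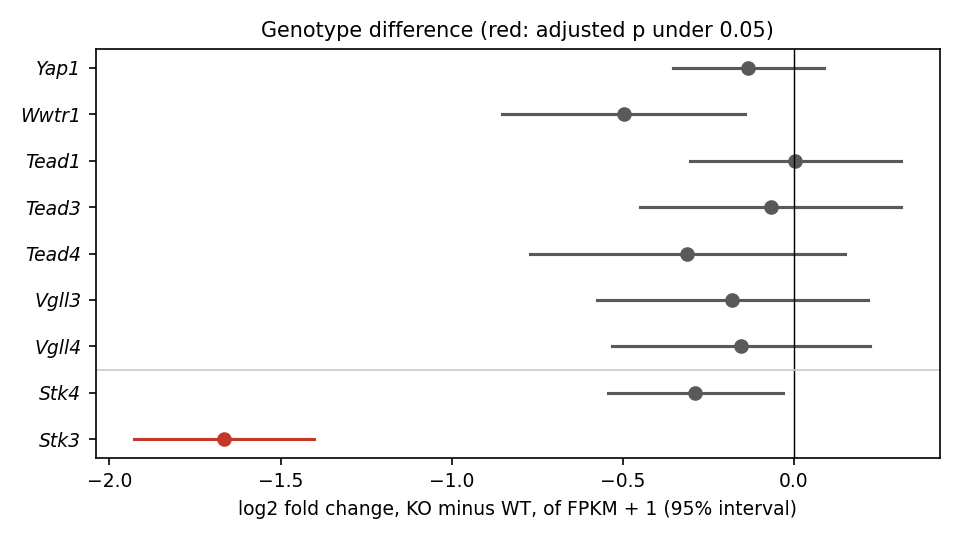
Log2 fold change of FPKM + 1, KO minus WT, with its 95% interval, for the 7 tested genes of the YAP, TAZ and TEAD group and for the kinase genes Stk4 and Stk3. Only Stk3, at -1.67, is past an adjusted p of 0.05, and among the other genes Wwtr1, at -0.50, lies farthest from 0.

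By mean FPKM the order in KO was Yap1, Wwtr1, Tead3, Tead4, Tead1, Vgll4, Vgll3 and Tead2, and the order in WT was the same. In WT the ranges of Yap1 and Wwtr1 overlapped, as did those of Tead3 and Tead4 and of Tead1 and Vgll4, and the remaining neighbours did not overlap. In KO the first 6 genes formed a chain in which each neighbouring pair overlapped, and Vgll3 and Tead2 stood apart below them. Within single KO libraries, Yap1 was above Wwtr1, Wwtr1 above Tead3 and Tead3 above Tead4 in 5 of 5. Tead4 was above Tead1, and Tead1 above Vgll4, in 3 of 5 KO libraries. Within WT libraries, Yap1 was above Wwtr1 in 2 of 5, Tead3 above Tead4 in 4 of 5 and Tead1 above Vgll4 in 2 of 5. Yap1 and Wwtr1 were above 70.4% and 67.0% of all tested genes by mean level, Tead3 above 53.3%, Tead1 above 43.1%, Vgll4 above 40.0% and Vgll3 above 8.34%. By the exon length in GENCODE M21, between about 1440 and 2104 fragments per library stood behind Yap1, 417 to 1174 behind Wwtr1 and 70 to 271 behind Vgll3, so counting error weighs most on Vgll3 and Tead2. Shared sequence was small for these genes, as at most 3.07% of their 31-base sequences, in Yap1, were also found in another gene. Genes on the opposite strand that overlap them in the annotation, such as Gm20416 at Yap1 and Gm16016 at Wwtr1, had 0.96 FPKM or less. The predicted miRNA gene Gm44462, on the same strand as Tead1, was not analysed here.

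Within genotypes the 7 tested genes varied together only in part. Over deviations from the genotype means of log2(FPKM + 1) in 10 libraries, 15 of 21 pairs had a positive correlation, 5 had an unadjusted p under 0.05 and 0 passed after adjustment over the 21 pairs, by Pearson's r or by rank (exact permutation within genotypes, 14400 arrangements, two-sided). The Spearman coefficient given here uses ranks taken within each genotype, separately in KO and in WT, and not ranks over all 10 libraries. The pair with the highest Pearson correlation was Wwtr1 and Vgll3, with r = 0.79 and Spearman coefficient = 0.80 over n = 10 (exact permutation p = 0.00889 and 0.0192, adjusted p = 0.0933 and 0.201), and r = 0.71 without KO 1 and KO 3. By rank the highest was Tead1 and Tead3, with Spearman coefficient = 0.90 and r = 0.63 over n = 10 (exact permutation p = 0.00431 and 0.0697, adjusted p = 0.0904 and 0.244), and r = 0.62 without KO 4 and WT 1. Yap1 and Wwtr1 had r = 0.019 and Spearman coefficient = 0.10 over n = 10 (exact permutation p = 0.964 and 0.842). Tead4 and Vgll4 went opposite ways, with r = -0.66 and Spearman coefficient = -0.70 over n = 10 (exact permutation p = 0.00889 and 0.0522, adjusted p = 0.0933 and 0.219), but r was -0.28 without KO 1 and KO 3, so that relation rests on those libraries. All values of a library share its scaling and depth.

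Among all tested genes, the patterns most like those of the 8 across the 10 libraries, by Pearson's r of the same deviations, are given as a description without a test, since each is the highest of 11386 genes. For Wwtr1 they were Trpv3, a cation channel gene of keratinocytes (r = 0.95), and Mrs2, a mitochondrial magnesium channel gene (r = 0.94). For Yap1 they were the F-box gene Fbxo46 (r = 0.96) and the orphan nuclear receptor gene Esrra (r = 0.96), and without WT 2 and WT 4 the r with Esrra was 0.68. For Tead4 they were the connexin gene Gjb6 (r = 0.98) and Ankrd35 (r = 0.97), for Tead3 the tyrosine kinase gene Tnk2 (r = 0.99) and Arhgap17 (r = 0.97), and for Tead1 Ankrd24 and Phf24 (r = 0.95 each). For Vgll3 they were the calmodulin-like gene Calml3 (r = 0.92) and the methyltransferase gene Smyd3 (r = 0.91), and for Vgll4 Trmt1l (r = 0.96) and Phf20 (r = 0.95).

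Other genes of the pathway were counted in 4 lists, which were not tested as sets. The lists overlap, as Lats2 is counted both as an upstream gene and as a target. Amotl2, Ajuba and Ptpn14 are counted both among the proteins that bind, hold or modify YAP and TAZ and as targets. Over all tested genes, 7.9% were higher and 4.96% lower in KO. Of 14 tested genes upstream of YAP and TAZ, 0 rose and 2 fell, Stk3 and Frmd6. Stk3 is the gene of Mst2, whose alleles are null in KO. Its fall was thus given by the design and is not a finding about this list, which also holds the targeted Stk4. Frmd6, a FERM-domain scaffold, averaged 17.9 ± 1.31 FPKM in KO and 24.3 ± 2.99 FPKM in WT (limma adjusted p = 0.0229). The Lats kinase genes, which act directly on YAP and TAZ, did not pass, with Lats1 at 9.07 ± 1.03 FPKM in KO and 8.34 ± 0.890 FPKM in WT and Lats2 at 1.55 ± 0.335 FPKM in KO and 1.48 ± 0.380 FPKM in WT. The median log2 fold change of this list was 0.09, against 0.06 over all tested genes.

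Of 22 tested genes for proteins that bind, hold or modify YAP and TAZ, 1 rose and 3 fell. Over all tested genes the shares were 7.9% and 4.96%. Ywhah, an adaptor that binds phosphorylated proteins, rose, with 22.8 ± 2.00 FPKM in KO and 13.7 ± 2.38 FPKM in WT (SD, n = 5 each; limma adjusted p = 0.00286). Its relative Ywhaz fell, with 71.2 ± 6.15 FPKM in KO and 104.7 ± 8.46 FPKM in WT (limma adjusted p = 0.00489). The LIM protein gene Limd1, a Lats inhibitor, fell, with 4.65 ± 0.698 FPKM in KO and 7.97 ± 1.12 FPKM in WT (limma adjusted p = 0.00383), and the kinase gene Src fell, with 5.48 ± 0.716 FPKM in KO and 7.94 ± 1.12 FPKM in WT (limma adjusted p = 0.0245). Copies of Ywhaz, Ywhah and Frmd6 elsewhere hold 16.5%, 11.9% and 17.2% of their 31-base sequences, which leaves the division of reads between copies uncertain. The median of the list was 0.03.

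Of 15 tested genes for factors and coactivators that work beside TEAD, 4 rose and 1 fell, against 7.9% and 4.96% of all tested genes. The AP-1 genes Fos and Junb rose, Fos with 11.6 ± 6.61 FPKM in KO and 3.26 ± 1.31 FPKM in WT and Junb with 79.0 ± 19.95 FPKM in KO and 49.7 ± 6.04 FPKM in WT (limma adjusted p = 0.0305 and 0.0278). The other 2 were Runx1, with 1.85 ± 0.721 FPKM in KO and 0.812 ± 0.199 FPKM in WT (limma adjusted p = 0.0262), and the TGF-beta signal transducer gene Smad4, with 18.4 ± 2.06 FPKM in KO and 13.3 ± 2.36 FPKM in WT (limma adjusted p = 0.0372). Runx1 was at 0.98 FPKM or less in every WT library, so it passed the filter on low values only through KO. The coactivator gene Ncoa3 fell, with 8.06 ± 1.07 FPKM in KO and 12.1 ± 2.94 FPKM in WT (limma adjusted p = 0.0468). The median of the list was 0.03.

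Of 18 tested target genes of YAP and TAZ, 1 rose and 2 fell, against 7.9% and 4.96% of all tested genes. The median log2 fold change of the list was -0.11. The receptor tyrosine kinase gene Axl rose, with 15.4 ± 3.90 FPKM in KO and 9.03 ± 2.63 FPKM in WT (limma adjusted p = 0.0325). The ectonucleotidase gene Nt5e fell, with 0.168 ± 0.119 FPKM in KO and 5.96 ± 2.93 FPKM in WT, and the tissue factor gene F3 fell, with 54.4 ± 8.84 FPKM in KO and 109.4 ± 28.3 FPKM in WT (limma adjusted p = 0.000209 and 0.00619). Nt5e was at 0.35 FPKM or less in every KO library, so it passed the filter on low values only through WT. Ccn1, whose promoter is printed above, had 0.87, 3.29, 2.68, 1.22 and 2.83 FPKM in KO libraries 1 to 5, against 1.38, 1.33, 0.38, 1.78 and 0.93 FPKM in WT libraries 1 to 5, and did not pass (limma adjusted p = 0.192). Ccn1 was above every WT library in KO 2, KO 3 and KO 5, of which KO 3 had the most Wwtr1 and KO 5 the least. Its relative Ccn2, a further textbook target, had 5.32, 13.16, 2.42, 3.95 and 2.67 FPKM in KO libraries 1 to 5, against 2.39, 2.56, 0.46, 1.42 and 0.36 FPKM in WT libraries 1 to 5. In KO, 4 of 5 libraries lie above every WT library, and the groups overlap through KO 3. Its log2 fold change of 1.32 (SE 0.41) did not pass (limma adjusted p = 0.0615).

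**Figure D5:**
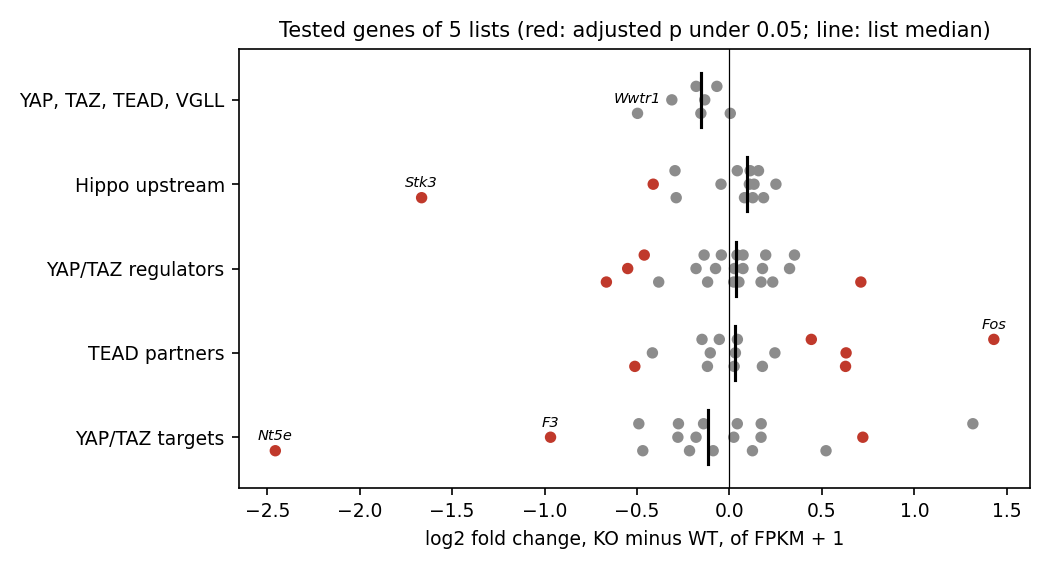
Log2 fold change of FPKM + 1, KO minus WT, of the tested genes of 5 lists, 1 point a gene in each list that holds it. Points are red for an adjusted p under 0.05, with a line at each list's median. The YAP, TAZ, TEAD and VGLL genes lie between -0.50 and 0.0045 with 0 of 7 past the threshold. The other lists hold called genes on both sides of 0, except the upstream list. Its 2 called genes, Frmd6 and the targeted Stk3, lie below 0.

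The TEAD letters were also counted over all tested genes with a promoter sequence, 8183 of 11386, as a description without a test. Of 1150 genes with a match, 8.26% rose and 5.57% fell, with a median log2 fold change of 0.04. Of 7033 genes without one, 7.39% rose and 4.83% fell, with a median of 0.06. Among 101 genes with at least 2 matches in a promoter, 14 rose and 4 fell, or 13.9% and 3.96%. Over all tested genes 7.9% rose and 4.96% fell.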

How the data were processed

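RNA-seq was measured in 10 libraries of mouse esophageal epithelium, 5 KO and 5 WT, grouped by their titles. The authors deposited 1 table of FPKM values with 2 decimals. The submitters' processing notes name mm9, HTSeq 0.6.1, HISAT2 2.0.1 and cutadapt. No source used here gives the settings, annotation or use of strand, so antisense reads cannot be told apart. Per the labels' protocols, mesenchyme was removed after Dispase digestion and read pairs of 150 bases were sequenced.

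Fragment totals were estimated as those that turn FPKM of single-exon genes of at most 1200 bp into whole fragments, which 98.3% to 98.6% did within 0.01 fragments beyond rounding, against a median of 5.63% to 6.45% over other totals. Lengths, chromosomes and shared sequence come from GENCODE M21 (GRCm38), promoters from RefSeq. Intervals cover the spread between libraries.

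Values were tested as log2(FPKM + 1) with limma 3.58.1 in R 4.3.3 (genotype the only term, trend, robust), Benjamini-Hochberg adjusted over 11386 genes, a scale that understates changes of low genes. The tests were checked on simulated data. Python 3.11.15, numpy 2.4.6, pandas 2.3.3, scipy 1.17.1 and matplotlib 3.10.9 did the rest. The alternatives were other pseudocounts, filters and scalings, no trend or robust estimation, sample weights, a replicate block, covariates for mesenchymal and clock genes, and leaving out each library. All 8 genes and the kinase genes were to be named, with up to 6 called genes of each pathway list, up to 4 of each marker list and its most abundant marker, and the 2 genes most alike to each tested gene, predicted names left out. Lats1, Lats2, Ccn1, Ccn2, the named neighbours on the chromosomes and genes listed at 0 were added after their values were seen. The members and lists were chosen with earlier results of these data known.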

Additional observations from a re-analysis of the deposited data

Results flagged for a closer look

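Among 36 groups of 5 libraries checked over the 8 genes and their ratios, 2 had a library standing far from the rest; chance flags about 1 in 20 groups. For Tead4 in WT this was WT 5, at 7.66 FPKM, where the rest of WT lay between 6.45 and 6.69 FPKM. For the ratio of Wwtr1 to Vgll4 in KO it was KO 3, at 4.96, against 1.28 to 2.13 in the other KO libraries. KO 3 combines the highest Wwtr1 and the lowest Vgll4 among the KO libraries.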

How the results depend on the processing

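The count of called genes among the 8 was 0 as reported and in 17 of 21 alternatives, and 1, Wwtr1, after quantile normalization, with sample quality weights, without KO 3 and without WT 3 (0 to 1 over single libraries left out). Wwtr1 then had a log2 fold change of -0.57 after quantile normalization and -0.54 with sample quality weights, and -0.60 to -0.41 over single libraries left out. Yap1 and Vgll3 kept a negative sign and no call under the alternatives in which they were tested (-0.22 to -0.000438 and -0.29 to -0.07). Tead1 turned negative after scaling by median ratios (-0.052), quantile normalization (-0.038), sample quality weights (-0.019) and the clock covariate (-0.017), and ranged from -0.088 to 0.079 with single libraries left out. Tead3 ranged from -0.21 to 0.024 with single libraries left out. With the mesenchymal covariate, which separates the genotypes and so cannot be told apart from them, Tead1 was at 0.48 (SE 0.34), Tead3 at 0.15, Tead4 at 0.017 and Vgll4 at 0.036, and Vgll4 was at 0.018 with the clock covariate. The cause of the other turns was not tested.

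Over all genes, 900 were higher and 565 lower; 511 were higher without a filter, 1390 with sample quality weights and 17 with the mesenchymal covariate, and 329 were lower with a filter at 5 FPKM and 19 with that covariate. Leaving out single libraries gave 436 to 1091 higher and 357 to 679 lower, with 538 higher without KO 1, 572 without KO 3, 529 without KO 5, 495 without WT 1 and 436 without WT 5, and with 369 lower without KO 5, 363 without WT 1 and 357 without WT 5. The called genes were 61.4% higher as reported, 46.6% after median-ratio scaling and 47.9% after quantile normalization, which moved the median of all genes from 0.06 to 0.00 and 0.01. With the replicate number as a block, 773 genes were higher and 551 lower, and Wwtr1 was at -0.50 (limma adjusted p = 0.129). In deviations from the genotype means of log2(FPKM + 1) over the tested genes, same-numbered KO and WT libraries correlated at -0.24 to 0.42. By these deviations 2 of 10 libraries correlated best with their own number, so the numbers are not taken to pair libraries. At a filter of 5 FPKM, Tead1, Vgll3 and Vgll4 were not tested. Depth limits Tead2 and Vgll3 most.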

Other observations

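Of the 70 tested genes that lie nearest to the 7 tested genes on their chromosomes, 5 on each side by RefSeq order, 5 were higher and 5 lower in KO, 14.3% against 12.9% of all tested genes. The neighbours named below were picked from the called ones after their values were seen, and other called ones are not named. The predicted gene Gm10709, named after its values were seen, is among the neighbours of Yap1 and had 0 to 0.44 FPKM in KO and 23.3 to 41.1 FPKM in WT (limma adjusted p = 2.36e-09), while Yap1 itself did not pass. Gm10709 passed the filter on low values only through WT. Gbe1, the glycogen branching enzyme gene near Vgll3, had 1.14 ± 0.306 FPKM in KO and 3.05 ± 0.471 FPKM in WT, and the secreted Wnt modulator gene Dkk3 near Tead1 had 1.75 ± 0.828 FPKM in KO and 4.97 ± 1.61 FPKM in WT (SD, n = 5 each; limma adjusted p = 0.000601 and 0.00735). Near Wwtr1, Serp1, a gene of the endoplasmic reticulum translocon, rose, with 81.8 ± 11.8 FPKM in KO and 59.97 ± 4.87 FPKM in WT, and the exosome gene Exosc8 rose, with 4.79 ± 1.09 FPKM in KO and 2.96 ± 0.782 FPKM in WT (limma adjusted p = 0.0340 and 0.0435). By chromosome, the share of called genes was 17.3% on chromosome 3, which carries Wwtr1, 14.2% on chromosome 6, 12.2% on chromosome 7, 11.6% on chromosome 9, 10.7% on chromosome 17 and 10.5% on chromosome 16.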
